A study of Mus musculus with 8 samples.

Results

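The 10 genes described here are markers of macrophages and other leukocytes: Laptm5, Csf1r, Cd68, Fcer1g, Tyrobp, Ptprc, Mrc1, Lyz2, Cd14 and S100a8. They were taken by gene name from the array files, which hold 31896 gene names, and they are read by 13 probes (3 for Csf1r, 2 for Laptm5 and 1 for each other gene), each printed as 1 spot among 43020 non-control spots. The arrays measured RNA of cultured satellite cells, which are muscle stem cells, from the extensor digitorum longus, a hindlimb muscle, of mice labelled male and 8 weeks old. Both genotypes, Dnmt3a-KO and their WT littermates, were grown for 5 days, replated at matched cell number and kept in differentiation medium for 2, 4, 5 or 6 days. The Dnmt3a gene encodes a de novo DNA methyltransferase. The labels do not state how it was deleted or in which cells. Each genotype and day had 1 array, which makes 8 in all and 4 of each genotype, and no label tells which animals gave which day. The p-values below measure the spread between these arrays, which may be technical, and the number of arrays limits the precision.

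Macrophages clear debris after muscle injury, and their signals act on satellite cells. Csf1r is the receptor for the growth factors Csf1 and Il34, on which macrophages depend. Cd14 is a coreceptor for bacterial lipopolysaccharide and Mrc1 (CD206) a mannose receptor. Fcer1g and Tyrobp (DAP12) are small adaptors whose ITAM motifs pass the signal of activating receptors to the kinase Syk. Ptprc (CD45) is the tyrosine phosphatase found on all nucleated blood cells, Laptm5 and Cd68 are lysosomal membrane proteins, Lyz2 is lysozyme, and S100a8 is a calcium-binding protein abundant in neutrophils and monocytes.

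Levels are given as scaled signal, the processed intensity of a probe divided by the 75th percentile of its own array, so that a value of 1 equals that percentile. The percentile itself was 1482.3 to 1528.1 intensity units on day 2 and 719.5 to 841.3 on days 4 to 6. By the scanner software's own call, 61.6% to 67.4% of non-control spots were well above background. The lowest scaled signal with that call was 0.00763 to 0.0119 over the arrays. Day 2 stood apart: both of its arrays lay on slide 1 and were read on another scanner model with another software version than the arrays of days 4 and 5 (slide 2) and day 6 (slide 3). On the later days the arrays also went against the label male, since Xist was detected on 6 of 6 later arrays and 0 of 2 day 2 arrays, and the Y-chromosome genes Uty, Kdm5d, Eif2s3y and Ddx3y on 0 of 6 and 2 of 2. Any difference between day 2 and the later days therefore cannot be told apart from slide, scanner, software or mice, while genotypes were paired within each slide. Dnmt3a signal in the Dnmt3a-KO arrays was 19.1% to 46.2% of that in WT. Of 9 myogenic markers, 8 were well above background on all 8 arrays, among them Myod1, Myog, Des and Cdh15, and Myf5 was so on none.

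The markers were unevenly detected. Laptm5, Csf1r, Fcer1g, Mrc1 and Cd14 were well above background on all 8 arrays. Ptprc was on 7 arrays and S100a8 on 5. Cd68, Tyrobp and Lyz2 were on none. Counted by array, 7 of 10 markers were detected on the WT arrays of days 4, 5 and 6 and on the Dnmt3a-KO array of day 5, and 6 of 10 on the other 4 arrays. For comparison, 54.1% of all gene names with a usable probe were well above background on all 8 arrays by at least 1 probe, and 25.1% on none, so the markers, at 5 and 3 of 10, were near the shares of all genes. In a bulk culture, fewer cells of a type and less RNA per cell cannot be told apart.

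The undetected markers include 2 whose probes are printed here to show what was read where no array was well above background. Both are read through by at least 1 open frame, and no part is set in capitals:
Tyrobp: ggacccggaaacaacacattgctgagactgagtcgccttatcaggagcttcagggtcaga
Lyz2: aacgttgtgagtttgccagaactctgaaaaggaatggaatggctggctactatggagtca
The Tyrobp probe, A_51_P261517, maps to both ends of chr7:31200651-31202378 on the plus strand of build mm9, a span of 1728 bases for 60 probe bases, so it crosses at least 1 splice junction. The Lyz2 probe, A_51_P321150, lies at chr10:116719175-116719234 on the minus strand. Lyz2 had scaled signals of 0.00302 and 0.00240 on day 2 (WT, then Dnmt3a-KO), -0.00548 and -0.00823 on day 4, 0.000950 and -0.0116 on day 5, and -0.0111 and -0.00631 on day 6. None reached the lowest signal called well above background on any array. Tyrobp had 0.00349 and 0.00291 on day 2, 0.00674 and 0.00571 on day 4, 0.0134 and 0.00304 on day 5, and -0.0159 and 0.0120 on day 6. Both day 2 arrays and its brightest arrays, WT of day 5 and Dnmt3a-KO of day 6, passed the software's weaker test of signal over background without being called well above it. Cd68 (chr11:69478979-69479038, minus strand, mm9) had 0.00471 and 0.00528 on day 2 and lay between -0.00346 and 0.00185 on the later arrays. It passed the weaker test on day 2 alone. The day 2 arrays, read with another software version, passed that test at lower signals, since Tyrobp passed at 0.00291 on day 2 and not at 0.00674 on day 4. The pass on day 2 is therefore no evidence that Cd68 changed. On the negative control spots, 153 per array, the 95th percentile was 0.00239 to 0.00536. No genotype or day comparison was made for these 3 genes.

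**Figure D1:**
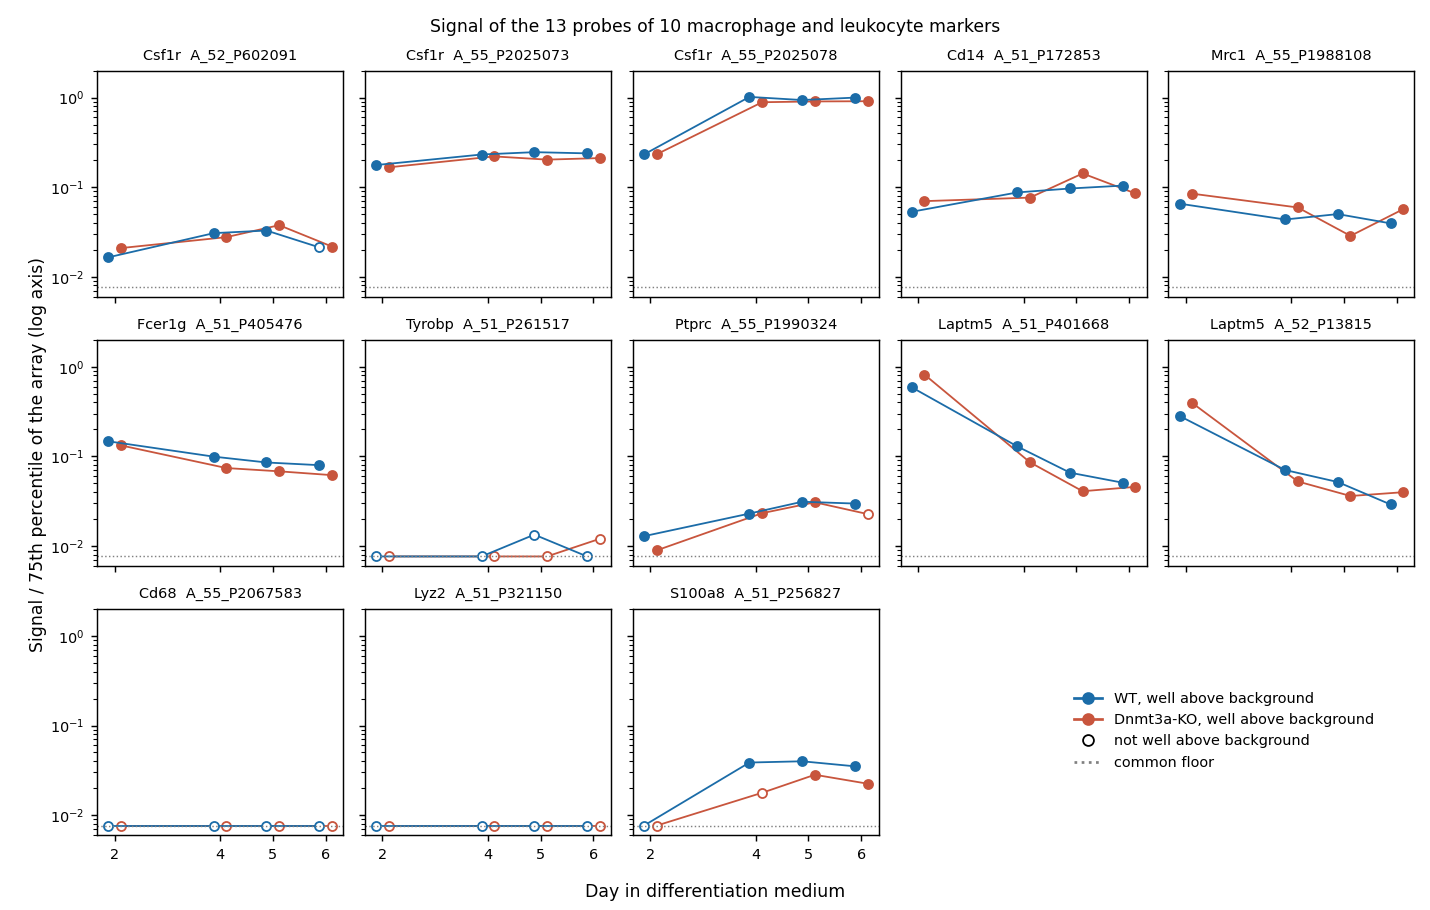
Scaled signal (processed signal over the array's 75th percentile, log axis) of each of the 13 probes by day in differentiation medium, 1 array per point, with WT in blue and Dnmt3a-KO in red, drawn slightly apart along the day axis. Open circles are not well above background, and values under the common floor of 0.00763 (dotted) are drawn on it. Both Laptm5 probes drop after day 2, 1 Csf1r probe rises from 0.232 and 0.233 to between 0.888 and 1.02, and Cd68 and Lyz2 stay on the floor.

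In scaled signal Csf1r, the macrophage growth factor receptor, was higher on days 4 to 6 than on day 2 by each of its 3 probes. The probes lie on the plus strand of chromosome 18 of mm9, and the sizes differed between them. Probe A_55_P2025078, the last in the direction of transcription at chr18:61290725-61290784, gave 0.232 and 0.233 on day 2 (WT, then Dnmt3a-KO), 1.02 and 0.888 on day 4, 0.939 and 0.906 on day 5, and 0.9999 and 0.911 on day 6. Dnmt3a-KO was at 87.2% to 100.4% of WT, day 2 lay below all 6 later arrays, and the later arrays were level. The mean of the later arrays was 4.05-fold that of day 2, with 4.25-fold in WT and 3.87-fold in Dnmt3a-KO. Probe A_55_P2025073, the first in that direction at chr18:61278661-61278720, gave 0.177 and 0.167 on day 2, and 0.232 and 0.221, 0.246 and 0.203, and 0.239 and 0.211 on days 4, 5 and 6. Its later mean was 1.31-fold that of day 2. Probe A_52_P602091 (chr18:61289398-61289758, a span of 361 bases that crosses a junction) was dim, at 0.0165 and 0.0209 on day 2 and 0.0213 to 0.0377 later, and was 1.51-fold higher later. In all 3 probes the scaled signals of day 2 and of the later days did not overlap. By A_52_P602091 the gap was narrow, from 0.0209 in Dnmt3a-KO on day 2 to 0.0213 in WT on day 6. That WT array was not well above background by this probe. Of all genes tested, 38.2% lay wholly below on day 2 and 29.7% wholly above. Before scaling, A_55_P2025078 gave 354.6 and 345.2 intensity units on day 2 and 677.6 to 762.3 later. A_55_P2025073 was lower later, at 157.1 to 179.8 against 269.9 and 247.0 on day 2. A_52_P602091 overlapped, at 25.2 and 31.0 on day 2 and 15.5 to 31.7 later. A rise by all 3 probes therefore depends on the scaling.

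The ligands of Csf1r were bright on all 8 arrays. Csf1 had scaled signals of 5.10 and 5.24 on day 2 by its brightest probe (WT, then Dnmt3a-KO), 7.08 and 4.19 on day 4, 10.2 and 12.7 on day 5, and 8.69 and 4.61 on day 6. It was lower in Dnmt3a-KO on days 4 and 6 and higher on days 2 and 5, with a mean log2 difference of -0.33 ± 0.60 (SD over 4 days). The later mean of Csf1 was 1.41-fold that of day 2 by this probe and 3.67-fold and 3.07-fold by its other probes. By the brightest probe Csf1 did not pass the day fit described below (limma adjusted p = 0.32). Il34 was at 2.22 and 3.58 on day 2 and between 0.871 and 1.25 later, a level 2.60-fold higher on day 2. Of 12 partners of the markers (ligands, coreceptors and paralogs), 7 were well above background on all 8 arrays and 3 on none: S100a9, Ager and Cd163.

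Cd14, the lipopolysaccharide coreceptor (chr18:36884969-36885028, minus strand), was well above background on every array. It gave 0.0532 and 0.0699 on day 2 (WT, then Dnmt3a-KO), 0.0874 and 0.0765 on day 4, 0.0967 and 0.142 on day 5, and 0.104 and 0.0852 on day 6. Dnmt3a-KO was higher on days 2 and 5 and lower on days 4 and 6. In scaled signal both day 2 arrays lay below all later ones, as in 38.2% of all genes tested. Later arrays averaged 1.59-fold the day 2 level. Before scaling, Cd14 overlapped between the days, at 81.3 and 103.6 intensity units on day 2 and 62.3 to 119.7 later. Its partners Tlr4 and Ly96, with which it forms the lipopolysaccharide receptor, were well above background on all 8 arrays, at 0.732 to 1.32 and 0.372 to 0.499. Tlr2, another receptor that Cd14 assists, went from 0.0137 and 0.0128 on day 2 to between 0.114 and 0.175, a 10.3-fold higher mean.

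Mrc1, the mannose receptor (probe A_55_P1988108, chr2:14253273-14253332, plus strand), had its highest values on day 2. It gave 0.0654 and 0.0846 on day 2, 0.0436 and 0.0593 on day 4, 0.0501 and 0.0286 on day 5, and 0.0394 and 0.0568 on day 6. Dnmt3a-KO was higher on days 2, 4 and 6, and on day 5 it was at 57.1% of WT. The genotypes overlapped, and day 2 averaged 1.65-fold the later level. The paralog Mrc2, a collagen receptor of stromal cells, did not pass the day fit described below (limma adjusted p = 0.23). By its brighter probe it gave 0.132 and 0.134 on day 2, 0.185 and 0.0884 on day 4, 0.357 and 0.528 on day 5, and 0.322 and 0.130 on day 6, so Dnmt3a-KO was under its day 2 level on days 4 and 6.

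Fcer1g, the shared gamma chain of activating Fc receptors (chr1:173159794-173159853, minus strand), was lower in Dnmt3a-KO on each of the 4 days. It gave 0.147 and 0.133 on day 2 (WT, then Dnmt3a-KO), 0.0992 and 0.0740 on day 4, 0.0854 and 0.0680 on day 5, and 0.0797 and 0.0617 on day 6. Dnmt3a-KO was at 90.0%, 74.6%, 79.7% and 77.4% of WT, and both genotypes declined from each day to the next. Taken over all days the genotypes overlapped. Day 2 averaged 1.81-fold the later level.

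The receptors that use these adaptors were mostly dim, and Trem1 was a bright exception. Of 20 ITAM receptors and signalling genes, 7 were well above background on all 8 arrays and 7 on none. The latter included the Fc receptors Fcgr1 and Fcgr3, the alpha chain Fcer1a and the signalling gene Vav1. Trem1 was well above background on all 8 arrays, at 0.824 to 1.15, and the Fc receptor Fcgr4 on 6. Trem2, a Tyrobp-coupled receptor, was not well above background on day 2 and was on 4 of 6 later arrays, at 0.0274 to 0.0433, which is at least 3.87-fold higher. The kinase Syk was well above background on all 8 arrays, at 0.0336 and 0.0349 on day 2 and 0.0642 to 0.231 later. Its WT signal exceeded Dnmt3a-KO on days 4 and 6, at 0.148 against 0.0642 and at 0.135 against 0.0696, but not on day 5, at 0.181 against 0.231.

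Ptprc, the CD45 phosphatase, stayed dim throughout. Its probe, A_55_P1990324, is shown because it reads the pan-leukocyte gene of the set, and 1 of its open frames ends in a stop codon, set in capitals:
Ptprc: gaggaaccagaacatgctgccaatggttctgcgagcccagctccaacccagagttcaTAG
It lies at chr1:139961083-139961142 on the minus strand of mm9. It gave 0.0128 and 0.00892 on day 2 (WT, then Dnmt3a-KO), 0.0230 and 0.0232 on day 4, 0.0311 and 0.0307 on day 5, and 0.0297 and 0.0227 on day 6. The last value was not well above background. Dnmt3a-KO was at 69.4%, 101%, 98.6% and 76.4% of WT on days 2, 4, 5 and 6. In scaled signal, later arrays averaged 2.47-fold the day 2 level and did not overlap with it. The same direction without overlap was seen in 53.4% of the genes tested with a mean log2 scaled signal under -5. Before scaling, Ptprc overlapped between the days, at 19.6 and 13.2 intensity units on day 2 and 16.5 to 25.8 later.

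Laptm5, which in leukocytes sends antigen receptors to lysosomes, was the marker with the largest change with time among those well above background on day 2. Its probes are neighbours on the plus strand of chromosome 4 (mm9), at chr4:130490785-130490844 (A_51_P401668) and chr4:130490893-130490952 (A_52_P13815). The brighter one gave 0.589 and 0.818 on day 2 (WT, then Dnmt3a-KO), 0.129 and 0.0858 on day 4, 0.0657 and 0.0408 on day 5, and 0.0508 and 0.0457 on day 6. The other gave 0.282 and 0.393, then 0.0704 and 0.0524, then 0.0517 and 0.0361, then 0.0290 and 0.0398. Day 2 lay above all later arrays by both probes, 10.8-fold and 7.46-fold on average. The drop was 7.80-fold in WT and 15.1-fold in Dnmt3a-KO by the brighter probe and 5.96-fold and 9.32-fold by the other. By both probes Dnmt3a-KO was above WT on day 2 and below it on days 4 and 5. On day 6 the probes disagreed in the sign of the difference, at 90.0% and 137% of WT.

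S100a8, the neutrophil and monocyte calcium-binding protein, was detected on the later days alone. Its probe, A_51_P256827 (chr3:90473778-90473837, plus strand, mm9), is shown because it reads a marker detected after day 2 alone, and it has an open frame throughout:
S100a8: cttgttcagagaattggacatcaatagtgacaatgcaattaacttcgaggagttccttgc
Its signal on day 2 was 0.00223 in WT and 0.00180 in Dnmt3a-KO, both not well above background. It gave 0.0386 and 0.0177 on day 4 (WT, then Dnmt3a-KO, the second not well above background), 0.0399 and 0.0282 on day 5, and 0.0350 and 0.0224 on day 6. On those 3 days every WT array was above every Dnmt3a-KO array. On average WT exceeded Dnmt3a-KO by 1.69-fold, and Dnmt3a-KO minus WT in log2 came to -0.76 ± 0.33 (SD of days 4, 5 and 6). The share of all genes separated in this way was not computed. Without day 2, S100a8 did not pass the genotype fit described below (limma adjusted p = 0.26). Another background correction, normexp, shrank its estimate over all 4 days from -0.57 to -0.13. The later arrays were at least 3.27-fold above day 2. S100a9, with which S100a8 forms calprotectin, was not well above background on any array, at -0.0102 to 0.00206.

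The main comparison was Dnmt3a-KO against WT over the 4 days. It was fitted with limma with day as a factor over the 19655 genes that were well above background on at least 4 arrays, among them 7 of the 10 markers. None of the 7 passed an adjusted p of 0.05, and over all genes 2 did, or 0.0102%. At an unadjusted p under 0.05 there were 2 of 7 markers and 2531 of 19655 genes. The 7 tested markers' median log2 difference, with S100a8 counted, was -0.23, beside -0.012 for all genes tested. Fcer1g differed by -0.32 ± 0.12 (SD over 4 days; limma adjusted p = 0.26) and, with 1 probe per gene, was the 1 marker lower in Dnmt3a-KO on all 4 days, as were 11.5% of genes tested. The Csf1r probe A_55_P2025073, which did not stand for its gene in the fit, was also lower on all 4 days, by -0.15 ± 0.096. S100a8 differed by -0.57 ± 0.46 (limma adjusted p = 0.34), a value that counts its day 2 pair, both below background, as no difference. With the normexp background correction S100a8 was at -0.13 and Fcer1g at -0.19. Ptprc differed by -0.23 ± 0.27 (limma adjusted p = 0.48) and Laptm5, by its brighter probe, by -0.24 ± 0.53 (limma adjusted p = 0.66). The other Laptm5 probe gave -0.002, normexp gave -0.024, and leaving out a day moved the value to -0.48 without day 2, -0.12 without day 4 and -0.090 without day 5. Csf1r differed by -0.094 ± 0.089 by its brightest probe (limma adjusted p = 0.60), Cd14 by 0.12 ± 0.42 (0.79) and Mrc1 by 0.13 ± 0.63 (0.84), the last pair with both signs among the days. Mrc1 moved to 0.055, 0.030, 0.45 and 0.003 without days 2, 4, 5 and 6. A p above the threshold does not show that the genotypes were alike.

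**Figure D2:**
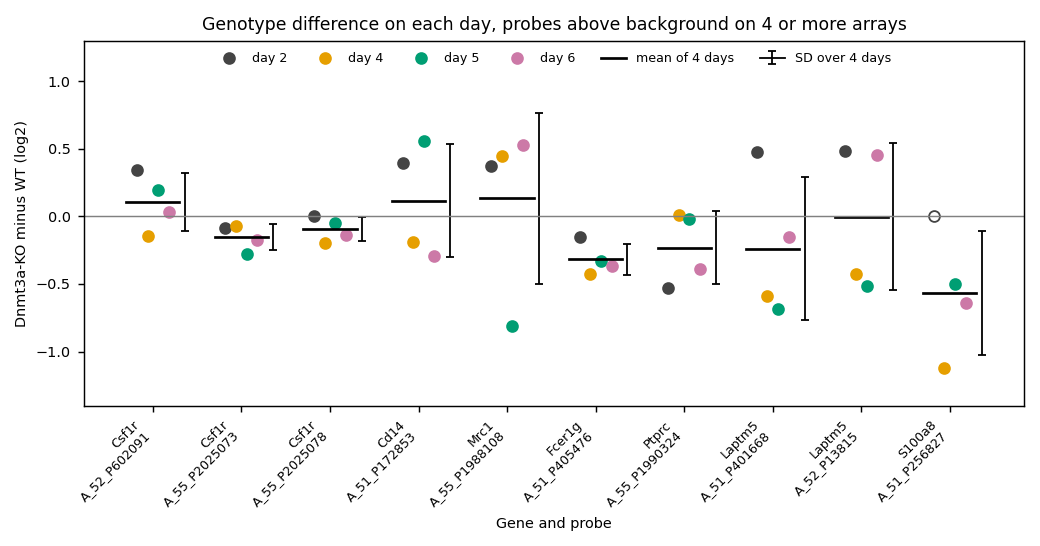
Dnmt3a-KO minus WT on the log2 scale for each probe well above background on at least 4 arrays, with 1 point per day, the mean of the 4 days as a black line and the SD over the 4 days as a bar beside it. An open point marks a day on which neither array was well above background. The 4 Fcer1g points lie between -0.42 and -0.15, while the Mrc1 points run from -0.81 to 0.53.

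On single days, with 1 array per genotype and no test, S100a8 on day 4 was the 1 marker counted at a 2-fold difference or more, with Dnmt3a-KO at 45.9% of WT by a signal that was not well above background. Over all genes tested the shares at 2-fold or more were 3.03%, 4.53%, 2.74% and 3.18% on days 2, 4, 5 and 6. The 7 tested markers' median differences were 0.005, -0.20, -0.33 and -0.29 on days 2, 4, 5 and 6, beside 0.007, -0.017, -0.048 and 0.023 for all genes. The interaction of genotype and day was not called for any of the 7 markers or, at 0.0%, for any gene tested by limma, and an unadjusted p under 0.05 occurred in 0 of 7 markers and 219 genes.

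The other comparison was the course in differentiation medium, fitted with limma as a log2 change per day with genotype as a covariate. Laptm5 and Fcer1g fell, at -1.01 ± 0.12 per day (SE, limma adjusted p = 0.0082) and -0.25 ± 0.037 (limma adjusted p = 0.0097). Csf1r, by its brightest probe, and Ptprc rose, at 0.52 ± 0.11 (SE, limma adjusted p = 0.014) and 0.36 ± 0.076 (0.015). With the mean of its 3 probes Csf1r rose by 0.24 (limma adjusted p = 0.032). The fit gave S100a8 0.51 ± 0.11 (limma adjusted p = 0.016), but it passed the filter through the later days alone and its day 2 values were set to the floor, so its call is no evidence of a rise. Cd14 at 0.19 ± 0.071 (limma adjusted p = 0.058) and Mrc1 at -0.20 ± 0.089 (0.10) did not pass. Leaving S100a8 aside, 2 of 6 markers rose and 2 fell, where 25.9% of all genes tested rose and 19.5% fell, so a call by day was common on these arrays. With S100a8 counted, the 7 tested markers' median slope was 0.19, that of Cd14, and that of all genes 0.027. With S100a8 left out, Csf1r, Ptprc and Cd14 had positive slopes and Laptm5, Fcer1g and Mrc1 negative ones, so the median shows no shared rise.

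These calls depended on day 2. Without it, in a fit with 3 residual degrees of freedom, no marker and 0 genes passed (1574 at an unadjusted p under 0.05). The slopes over days 4 to 6 were -0.56 for Laptm5, -0.14 for Fcer1g, 0.003 for Csf1r, 0.085 for Ptprc and 0.049 for S100a8 (limma adjusted p of 0.58 to 0.99). By unadjusted limma p, Laptm5 (0.0097) and Fcer1g (0.028) still fell, and no other tested marker was under 0.05. With fewer arrays and days, a lost call does not show that a change ended by day 4. Without day 5, 391 genes passed and Csf1r, Fcer1g, Ptprc and S100a8 did not (limma adjusted p of 0.060 to 0.068), at slopes of 0.51, -0.25, 0.32 and 0.47, close to those with all days. With slide as a random block 1935 genes passed and Csf1r and S100a8 did not (limma adjusted p of 0.053 and 0.051), at 0.44 and 0.48. In scaled signal, the 2 arrays of day 2 lay wholly below the 6 later arrays for Csf1r, Ptprc and Cd14. For Laptm5, Fcer1g and Mrc1 they lay wholly above. Of all genes tested, 38.2% lay below on day 2 and 29.7% above. Before scaling, the intensities of Ptprc and Cd14 overlapped between day 2 and the later days. Of the 2159 genes tested with a mean log2 scaled signal under -5, among them Ptprc and S100a8, 53.4% were higher later without overlap, with a median of 1.71-fold. The filter favours such rises, because a gene above background on day 2 alone cannot reach 4 arrays. Ptprc, at 2.47-fold, was also detected on the 2 arrays of day 2, and the part of the arrays' background in its rise was not tested. Among the 4019 genes from -5 up to -3, which include Laptm5, Fcer1g, Mrc1 and Cd14, the median change was 1.01-fold.

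**Figure D3:**
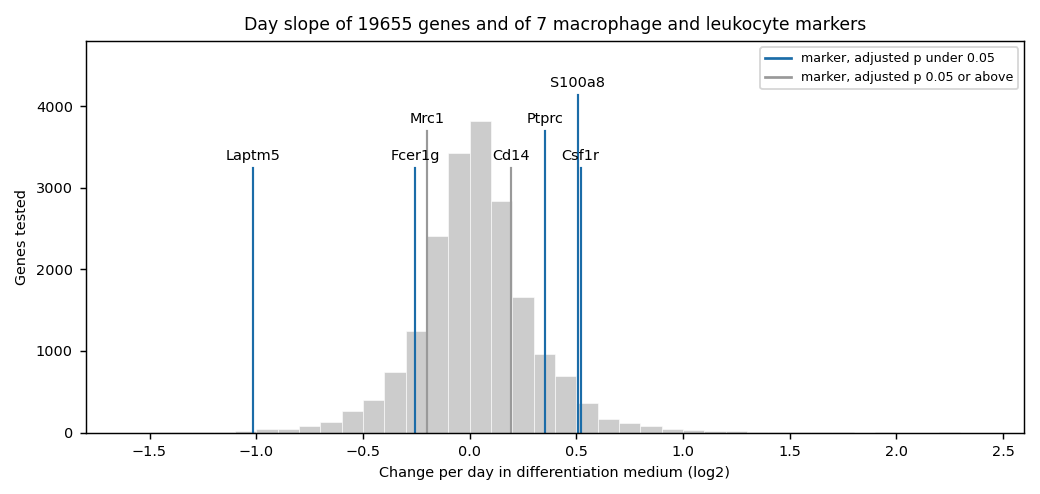
Histogram of the change per day (log2, x axis) of the 19655 genes tested, with the 7 tested markers as vertical lines, blue where the adjusted p was under 0.05 and grey otherwise. Line heights carry no value. Laptm5, at -1.01 per day, lies in the left tail, and the other 6 lie between -0.25 and 0.52.

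Other leukocyte lists were counted in the same way, with no test between lists. Of 33 other macrophage markers, 11 were well above background on all 8 arrays and 11 on none, so markers commonly used to find macrophages were in both groups: Adgre1, Itgam, C1qb and Cd74 on all 8, and C1qc, Ctss, Cx3cr1, Ccr2, Aif1 and Clec7a on none. Of 18 pan-leukocyte genes 7 were on all arrays and 4 on none, including Cd52 and Cd53, and of 14 neutrophil markers 4 and 4. Of 16 lymphocyte markers 3 were on all arrays, and of 7 mast cell markers 1. The 3 probes of Itgam, the CD11b integrin chain, changed differently after day 2, to 0.470-fold, 0.863-fold and 2.90-fold the day 2 level. By contrast 15 of 15 general lysosome genes, such as Lamp1, Ctsd and Ctsb, were well above background on all 8 arrays. The macrophage lysosomal markers were divided, with Laptm5 on all 8 and Cd68 and Lyz2 on none. Fibroblast markers were well above background on all 8 arrays in 7 of 9 and endothelial markers in 2 of 6.

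**Figure D4:**
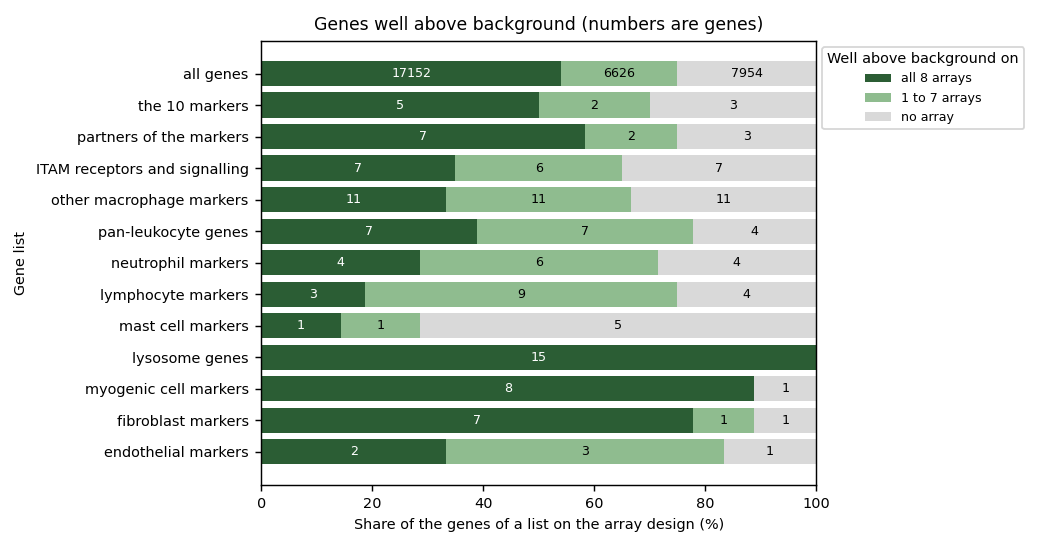
Share of the genes of each list that were well above background, by at least 1 probe, on all 8 arrays (dark green), on 1 to 7 arrays (light green) or on no array (grey), with the number of genes in each part. The 10 markers (5, 2 and 3) lie near all genes, the mast cell markers have 5 of 7 genes on no array, and all 15 lysosome genes are on all 8.

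No gene of these lists passed the genotype threshold of limma. In the day course, 6 of 17 tested macrophage markers rose and 5 fell, and 6 did not pass, where 25.9% of all genes tested rose and 19.5% fell. Among those that rose were Gpnmb at 0.80 ± 0.16 per day (SE), Spi1 at 0.56 ± 0.094, Adgre1, Ncf1 and H2-Ab1, and among those that fell were Folr2, Cd74, Runx1 and, by its brightest probe, Itgam. Spi1 encodes PU.1, the transcription factor that myeloid cells require. It was on no day 2 array and on 6 of 6 later arrays, at 0.0262 to 0.0382, which is at least 3.57-fold higher. Spi1 and Trem2 entered the fit through the later days alone, so their calls are no evidence of a rise. The count of rising macrophage markers includes Spi1 and that of the ITAM list includes Trem2, so neither count is evidence of a shared rise. In the ITAM list 2 rose, Trem2 among them, and 4 fell, Lat2, Inpp5d, Ptpn6 and Fyn, of 11 tested. Fibroblast markers moved with day as well, with 5 of 8 tested rising and 0 falling, among them Col1a1, at 0.123 and 0.584 on day 2 (WT, then Dnmt3a-KO) and 2.42 to 24.6 later. The part of such cells in the marker changes was not tested.

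For each marker well above background on all arrays, the 3 most similar genes were sought among 17105 others by Pearson's r of log2 signal over the 8 arrays, as a description. The arrays share the step after day 2, so r over the 6 later arrays is given beside it. Laptm5 ran closest to Tex44 (r = 0.998 over 8 arrays, 0.985 over 6), 2610319H10Rik and 5330431K02Rik. Csf1r ran closest to the X-linked gene Eif2s3x (0.999 and 0.904), then Tmem192 and Ap4s1, which fell to 0.695 and 0.709 over the later arrays. Fcer1g ran closest to Atp8a2 (0.996 and 0.994), Mrc1 to AW146154 (0.977 and 0.953) and Cd14 to Slc2a13 (0.978 and 0.965). No other marker was among the 3 nearest genes of any marker.

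Promoter windows were matched by symbol. In RefSeq windows of GRCm38.p6, 250 bases before to 50 after a gene's start, 7 markers had 8 promoters, with 1 CpG (Lyz2) to 9 (Laptm5) and a median of 4, beside a median of 7 over 32851 promoters. Between 14.1% (for Lyz2) and 56.5% (for Laptm5) of all promoters had as few, so these counts are ordinary. Tyrobp was not matched. Csf1r and Cd14, which lie on chromosome 18, were left out of the promoter windows and are not reported here. The word GAGGAA, a core sequence that PU.1 binds, was found on either strand in 5 of the 8, those of Cd68, Laptm5, Mrc1, S100a8 and 1 of the Ptprc starts, and in 28.3% of all promoters. It was in none of the windows of Fcer1g and Lyz2.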

How the data were processed

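Per the file headers, the authors obtained the spot intensity of day 2 on a G2505C scanner with Feature Extraction 11.0.1.1 and that of the other days on a G2505B with 9.5.3.1, and probes were placed on mm9. The submitters' processing notes name version 9.5. The processed intensity is background-corrected, and the day 2 files hold no value at or below 0, unlike the others. The deposited value table is a score, in which 100 stands for the 75th percentile of all spots of an array, negatives are 0 and values are rounded; its median was 6 on each array.

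Signals were set relative to the array's 75th percentile (non-control spots), raised to a common floor of 0.00763 and put on the log2 scale. Spots flagged as outliers were left out, and 273 of 39429 probes had no usable spot. Symbols of 26055 probes were updated by accession from RefSeq GRCm38.p6. For tests the probe with the highest mean stood for a gene. Tests used limma 3.58.1 in R 4.3.3 with Benjamini-Hochberg adjustment at 0.05. The genotype fit has 3 residual degrees of freedom and the day slope 5. A group with no array well above background gives a bound, its fold taken against the higher of its own signal and the lowest signal called well above background on each array.

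The markers and gene lists were chosen with earlier results of these data known. All 10 markers and their 13 probes are described. From other lists, counts and genes past the threshold or of highest level are named, except some that are not reported here. Simulated data with 19655 genes checked the steps: 66.5% of 200 genes changed by 1 log2 unit were recovered in the genotype fit and 72.5% of 200 changed by 0.5 per day in the slope. Alternatives covered scaling, background, filter, probes, variance model, weights, blocks, fold and leaving out each day. Other columns of the value table were not present.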

Additional observations from a re-analysis of the deposited data

Results flagged for a closer look

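Among the 10 marker probes well above background on at least 4 arrays, 30 sets of 4 values were examined (the WT arrays, the Dnmt3a-KO arrays and the 4 daily differences), and 5 held a value far from the other 3 by Dixon's criterion. The criterion's rate of about 5% holds for independent values from the same distribution. These sets share arrays and each spans day 2 and the later days, so that rate is no measure of chance here. In 4 of the 5 flagged sets the value apart was that of day 2. They were the Laptm5 probe A_52_P13815 in Dnmt3a-KO at -1.35 on the log2 scale and the Csf1r probe A_55_P2025078 at -2.11 in WT and -2.10 in Dnmt3a-KO. The last was S100a8 in WT, set to the floor of -7.03. The day 2 arrays differ from the others in slide, scanner and software version as well. The remaining value was the Mrc1 difference on day 5, at -0.81, where the other 3 days had Dnmt3a-KO above WT. No marker's genotype effect was called as differing between days.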

How the results depend on the processing

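No marker was called for genotype under any alternative. Over all genes the 2 genotype calls became 38 with genes well above background on all 8 arrays, 14 with array weights, 128 with day as a random block, 73 with normexp and 93 with a trended robust prior. They became 0 with genes above background on at least 1 array, the deposited score, the mean of all probes or quantile scaling, and 0 to 3 when a day was left out. The 8920 genes called by day became 1935 with slide as a random block and 0 to 9863 when a day was left out, 0 without day 2 and 391 without day 5. No alternative called an interaction. Reversed in sign were the Cd14 genotype difference without day 5, at -0.029 (adjusted p of 0.95, with 0.73 to 0.97 over its alternatives, and -0.029 to 0.25 when a day was left out), and the Mrc1 slope with normexp, at 0.035 (0.41, with 0.059 to 0.96). The 1 marker and day at 2-fold or more became 5 at 1.5-fold, 0 at 3-fold and 0 with normexp. The weaker background call put 6 rather than 5 markers on all 8 arrays. The Cd14 slope passed with quantile scaling, with normexp and without day 6, at 0.21, 0.21 and 0.30. Normexp left out spots with flagged background. The cause of these changes was not tested. The genotype fit is itself paired by day, with 4 pairs. The dim markers lie close to background, and their sizes are the least certain.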
